A study of Arabidopsis thaliana with 5 samples.

Results

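The genes described here were those whose log2 expression was higher on all 3 arrays of clipped Columbia than on both arrays of clipped Landsberg erecta. They were chosen by these measured values: the lowest Columbia value had to exceed the highest Landsberg erecta value, and the means had to lie at least 0.4 apart on the log2 scale. Control probe sets and probe sets of plastid or mitochondrial genes were left out, as was the small heat shock gene AT1G53540. Of 22593 probe sets examined in a table of 22810, 102 met the rule. Of these, 53 belonged to 1 named gene each, 1 to several genes and 48 had no gene name in the annotation used here.

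The study clipped plants of the Arabidopsis thaliana ecotypes Columbia and Landsberg erecta at bolting, to mimic grazing by a mammal, because the ecotypes differ in how they make up for such damage. RNA came from the secondary meristem, sampled on the day after clipping, and was hybridised to Affymetrix arrays. All 5 arrays were from clipped plants, 3 of Columbia and 2 of Landsberg erecta, so the values compare ecotypes after the same treatment. Unclipped plants were not analysed here. The labels call the arrays biological replicates and do not say how many plants went into each.

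When the main shoot of a plant is removed, buds that it held back grow out, and this regrowth draws on auxin signalling, on new cell walls and membranes and on the transport of nutrients into the growing shoot. The named members are ordered below by the role of their product, with no claim that any role is more frequent among the 102 than in the table. The differences were small: their median was 0.50 on the log2 scale, with quartiles of 0.43 and 0.60. In 2 probe sets the means lay at least 2-fold apart.

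The count of 102 was 0.451% of the probe sets examined, and 113 (0.5%) met the same rule with Landsberg erecta higher. The same condition was applied to each of the 9 other choices of 3 arrays against 2, all of which mix the ecotypes. Those gave 149 to 273 probe sets with the 3 arrays higher, so that all 9 gave more than the grouping by ecotype. With the 3 arrays lower, they gave 93 to 350, and 1 of the 9 gave fewer than the 113 of the ecotypes. Without the minimum difference, the ecotypes gave 881 with Columbia higher and the other choices 666 to 1157, of which 3 were fewer. With array medians made equal, the ecotypes gave 150, and 1 of the 9 other choices gave fewer, 147. The members are given as a description of these 5 arrays. In the fit across the whole table, limma with Benjamini-Hochberg adjustment called 0 of 22746 probe sets higher in Columbia (0%), so no member passed, and 0 higher in Landsberg erecta. The smallest adjusted p was 0.165 (limma). Without adjustment, 265 probe sets (1.17%) had a higher mean in Columbia and a limma p under 0.05, and 141 had a lower mean and such a p. Where no gene differs, a threshold of 0.05 passes a larger share of probe sets than these 2 counts together. They are therefore not read as a set of genes that differ.

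**Figure D1:**
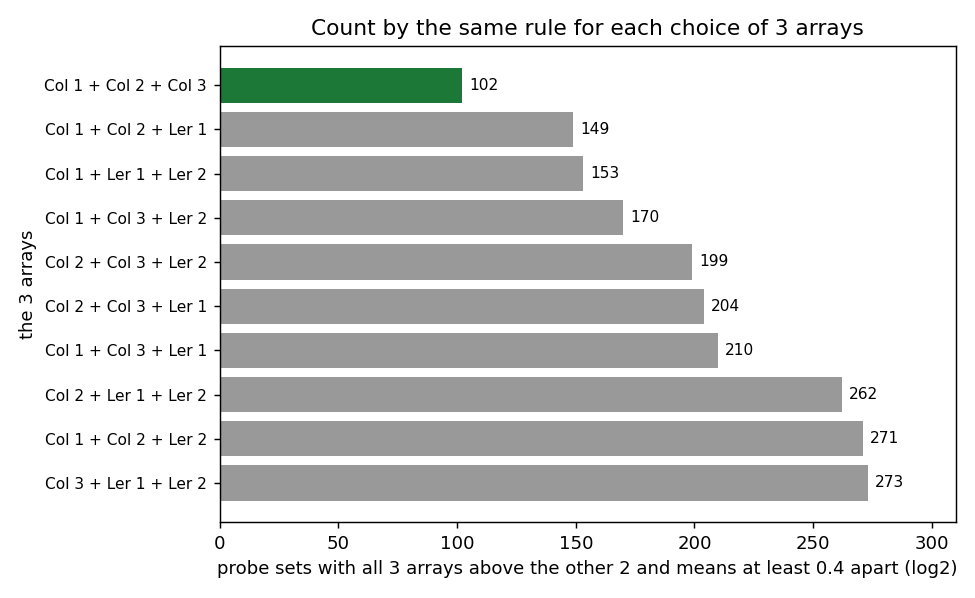
Number of probe sets (x axis) with all of 3 arrays above the other 2 and means at least 0.4 apart on the log2 scale, for each choice of the 3 arrays (y axis; Col, Columbia, and Ler, Landsberg erecta, with the replicate number). The ecotype grouping at the top (green) gave 102, and the mixed groupings (grey) gave 149 to 273.

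The gap between the groups, from the lowest Columbia value to the highest Landsberg erecta value, had a median of 0.21, and in 23 members it was under 0.1. The median range was 0.38 among the 3 Columbia arrays and 0.20 between the 2 Landsberg erecta arrays. In 20 members, 10 of them with 1 gene name, the gap exceeded both ranges. Of the 102, 35 kept a difference of at least 0.4 whichever single array was left out, and 67 did not. The mean level over the 5 arrays had a median of 6.74 in the members, against 6.81 over the 16312 examined probe sets whose value varied between arrays and 5.46 over all examined. No member had an array at the table's minimum of 2.15. Values shared between arrays also occurred above that minimum, and not at low levels alone. AT1G06260, a member, had 2.77 on both Landsberg erecta arrays, and SETH1, not a member, had 2.40 on all 5 arrays. At a higher level, a second probe set of AT2G01220 had 8.09 on Columbia replicates 1 and 2 and on Landsberg erecta replicate 2, identical on these arrays. Why arrays share a value, and whether the low ones are a floor of the probe set, was not tested.

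Columbia replicate 3 was the highest array for 44 members, replicate 2 for 32 and replicate 1 for 26. In 22 members 1 Columbia array stood more than 0.5 above the next, and in 14 of those it was replicate 3. On the side of Landsberg erecta, replicate 2 was the lower array in 62 members and replicate 1 in 40. In 15 members 2 of the 3 Columbia arrays had the identical value, to within 1e-06, and that shared value was the lower one in all 15. The same shares over all examined probe sets are not given here, so these counts are not read as traits of the members.

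**Figure D2:**
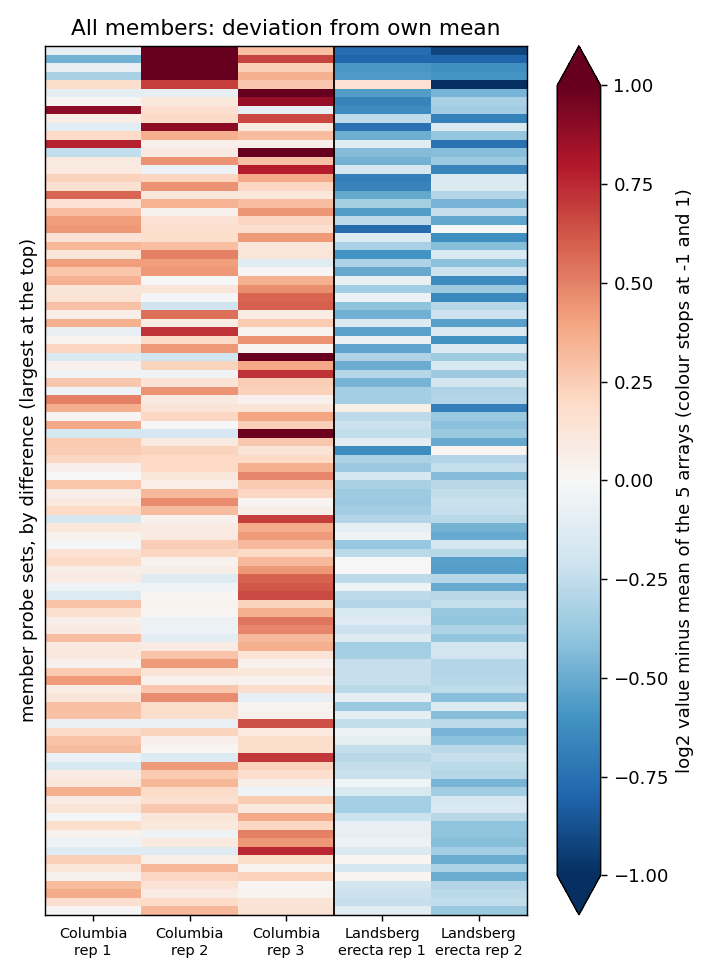
Each of the 102 members is a row, ordered by difference with the largest at the top, and each array a column. Colour gives the log2 value minus the member's mean over the 5 arrays. Median deviations were 0.12, 0.15 and 0.25 on Columbia replicates 1 to 3 and -0.26 and -0.35 on Landsberg erecta replicates 1 and 2, a split that the rule itself fixes.

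In the values that follow, arrays are in the order of replicates 1 to 3 for Columbia and 1 and 2 for Landsberg erecta, all on the log2 scale. Genes of protein breakdown included the named member with the largest difference, AT1G06260, a cysteine protease of the papain type. It had 3.09, 4.94 and 4.23 in Columbia, against 2.77 on both Landsberg erecta arrays, a difference of 1.32. Its Columbia arrays were far apart, and the lowest lay 0.32 above Landsberg erecta. Whether the value shared by both Landsberg erecta arrays is a floor of this probe set was not tested. AT2G37580, which encodes a RING-type protein, a class that holds many ubiquitin ligases, had 4.42, 4.42 and 5.71 in Columbia, against 3.95 and 4.05 in Landsberg erecta. Columbia replicate 3 enlarged the difference, which was 0.85 with it and 0.42 without it, still above the minimum of 0.4.

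The other named members of this kind were AT1G50440 and AT1G17970, both with RING domains, AT3G09030 with a BTB/POZ domain, and AT1G23390, a Kelch-repeat F-box protein known to mark chalcone synthase, the entry enzyme of flavonoid synthesis, for breakdown. AT1G23390 averaged 7.90 ± 0.37 in Columbia (SD, n = 3) and 7.44 ± 0.02 in Landsberg erecta (SD, n = 2). Its difference of 0.45 was 0.25 without Columbia replicate 3.

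Other named members encode membrane transporters. AT3G56160 and AT1G78560 both belong to the bile acid:sodium symporter family, whose characterised plant members carry organic acids across the chloroplast envelope. AT3G56160 had 4.89, 5.41 and 4.99 in Columbia, against 4.87 and 3.43 in Landsberg erecta. Landsberg erecta replicate 1 nearly reached the Columbia arrays, so the difference of 0.95 was 0.23 without replicate 2 and 1.67 without replicate 1. AT1G78560 had 6.45, 6.60 and 6.18 in Columbia, against 5.67 and 5.96 in Landsberg erecta, and its means differed by 0.60, with a gap of 0.22.

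Of the other 2 measured genes (those with a probe set named for them alone) of the symporter family, AT3G25410 averaged 8.17 ± 0.08 in Columbia (SD, n = 3) and 7.98 ± 0.01 in Landsberg erecta (SD, n = 2), also without overlap but below the minimum difference. AT4G22840 averaged 3.90 ± 0.03 in Columbia (SD, n = 3) and 4.04 ± 0.17 in Landsberg erecta (SD, n = 2). The family was listed after the values were seen, with 4 of its 6 loci measured. AT2G39130, a transporter of the amino acid transporter family, had 5.49, 5.47 and 5.64 in Columbia, against 4.57 and 5.12 in Landsberg erecta. Its Columbia arrays were close together, and its difference of 0.69 was 0.42 without Landsberg erecta replicate 1. AT5G17850, a cation/calcium exchanger, averaged 5.03 ± 0.45 in Columbia (SD, n = 3) and 4.55 ± 0.01 in Landsberg erecta (SD, n = 2), and without Columbia replicate 3 its difference of 0.48 was 0.23.

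Genes of the secretory pathway and of GPI anchors, the glycolipids that hold many proteins to the outer face of the plasma membrane, were also present. SETH2 encodes the subunit that takes part in the first step of anchor synthesis and is needed for pollen tube growth, and AT1G16560 encodes a protein of the Per1 type, which in yeast remodels the lipid of finished anchors. AT1G16560 had 5.38, 5.54 and 5.49 in Columbia, against 4.69 and 4.79 in Landsberg erecta, a difference of 0.73. Its gap of 0.59 was wider than the range within either ecotype. SETH2 had 6.19, 5.72 and 5.72 in Columbia, against 5.09 and 5.31 in Landsberg erecta, a difference of 0.67.

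The GPI anchor genes, again listed after the values were seen, had 8 of 10 loci measured. Besides both members, AT1G08750, AT3G07140 and AT5G62130 had higher means in Columbia, by 0.20, 0.10 and 0.08, AT5G19130 a lower one, by -0.05, and the ecotypes overlapped in all 4. SETH1, which acts in the same first step as SETH2, and AT1G12730 each held 1 value near the minimum on every array, 2.40 and 2.38.

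**Figure D3:**
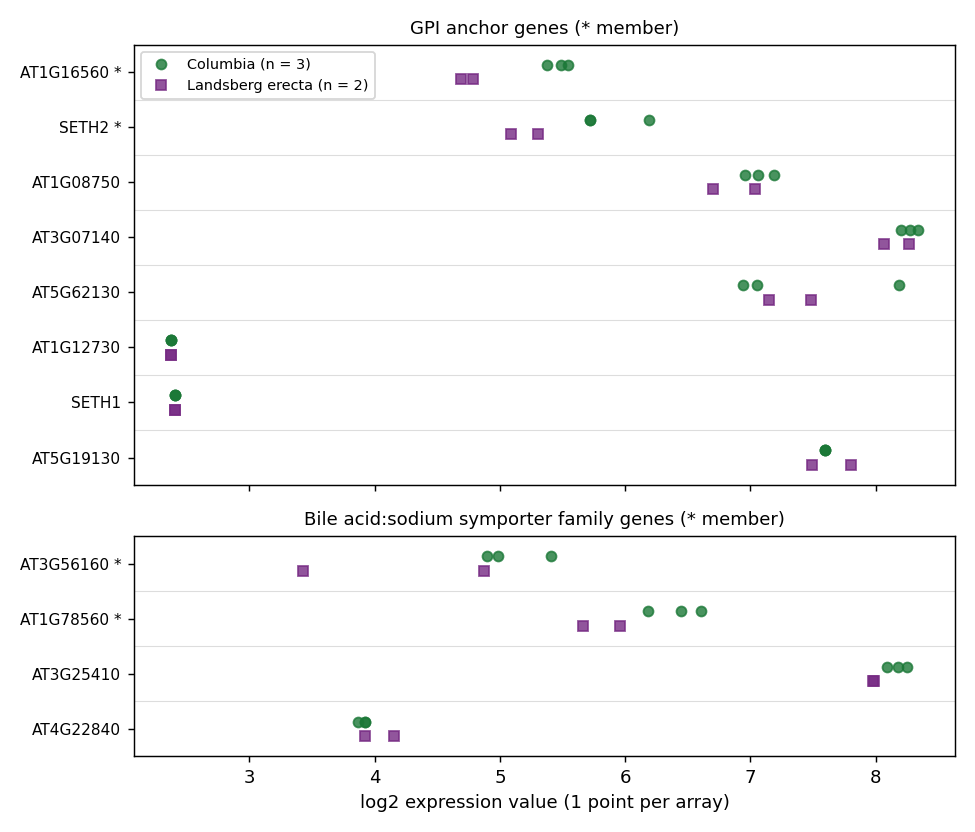
Log2 values (x axis) of the 8 measured GPI anchor genes and the 4 measured genes of the bile acid:sodium symporter family, with 1 circle for each Columbia array and 1 square for each Landsberg erecta array. Asterisks mark the 4 genes that met the rule. Among the rest, AT3G25410 alone showed no overlap with Columbia higher.

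AT3G07950, related to rhomboid proteins of the membrane, had 5.75, 5.48 and 5.54 in Columbia, against 5.07 and 4.81 in Landsberg erecta. AT3G22290, a protein of the family that sorts cargo between the endoplasmic reticulum and the Golgi, had 7.58, 7.46 and 7.43 in Columbia, against 7.09 and 7.03 in Landsberg erecta. The arrays of each ecotype lay close together in AT3G22290. A second probe set of the same gene had 4.07, 4.41 and 4.05 in Columbia, against 4.05 on both Landsberg erecta arrays, so there the lowest Columbia array equalled both Landsberg erecta arrays.

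Among genes of signalling and growth, MOB1-like encodes a protein of the MOB family, which activates kinases that control cell proliferation and division. It had 8.41, 8.76 and 8.61 in Columbia, against 7.84 and 7.95 in Landsberg erecta, and its means differed by 0.70, with a gap of 0.46. AT1G54450, an EF-hand protein that can bind calcium, had 4.81, 4.89 and 5.67 in Columbia, against 4.12 and 4.47 in Landsberg erecta. The 3 Columbia arrays of MOB1-like were evenly spread, whereas in AT1G54450 replicate 3 lay well above the other 2.

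GH3.9 belongs to the GH3 family, whose auxin-conjugating members join auxin to amino acids and so lower the free hormone. It had 3.81, 3.55 and 3.55 in Columbia, against 2.62 and 3.38 in Landsberg erecta, all low levels for the table. The difference of 0.64 depended on the Landsberg erecta arrays, with 0.26 without replicate 1 and 1.02 without replicate 2. Of the other 3 measured GH3 genes, listed after the values were seen, GH3.3 averaged 5.94 ± 0.47 in Columbia (SD, n = 3) and 6.30 ± 0.40 in Landsberg erecta (SD, n = 2), and GH3.1 and GH3.17 lay at the minimum on all arrays but Columbia replicate 2 of GH3.17, at 2.23.

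Regulators of gene expression were named as well. PEP (PEPPER), an RNA-binding protein with KH domains that acts in pistil development and on the flowering repressor FLC, averaged 6.22 ± 0.21 in Columbia (SD, n = 3) and 5.66 ± 0.27 in Landsberg erecta (SD, n = 2). Without Landsberg erecta replicate 1 its difference of 0.56 was 0.36. GT2, a trihelix protein that binds DNA, averaged 6.38 ± 0.25 in Columbia (SD, n = 3) and 5.88 ± 0.18 in Landsberg erecta (SD, n = 2).

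Lipid genes covered synthesis and breakdown. FATB, a plastid thioesterase that releases saturated fatty acids for export, had the highest level among the named members, with 10.63, 10.81 and 10.97 in Columbia, against 10.08 and 10.43 in Landsberg erecta. AT1G09390, a lipase of the GDSL type, had 6.94, 6.91 and 6.72 in Columbia, against 6.29 and 6.18 in Landsberg erecta, and its gap of 0.44 exceeded the range within each ecotype. ATCES1, an alkaline ceramidase that splits ceramide into a sphingoid base and a fatty acid, had 6.04, 6.11 and 6.09 in Columbia, against 5.63 and 5.61 in Landsberg erecta. ATCES1 thus combined a small difference, 0.46, with arrays that almost coincided within each ecotype.

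Of 13 loci listed for sphingolipid metabolism, 4 were measured: 3 had a higher mean in Columbia, and ATCES1, which the rule had chosen, was the single one without overlap. LCB2, a subunit of the enzyme that starts sphingolipid synthesis, averaged 8.10 ± 0.18 in Columbia (SD, n = 3) and 7.89 ± 0.08 in Landsberg erecta (SD, n = 2). The neutral ceramidase genes AT1G07380 and AT2G38010 differed by 0.09 and -0.01.

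Of the named members with products that act on the cell wall, AT3G47400 encodes a pectin methylesterase, AT3G09410 a pectin acetylesterase, AT2G27500 a glycosyl hydrolase and AT5G51890 a class III peroxidase, a kind of enzyme that acts in walls. Of these 4, AT3G09410 had the largest gap, 0.28, with 7.77 ± 0.13 in Columbia (SD, n = 3) and 7.32 ± 0.04 in Landsberg erecta (SD, n = 2). AT5G51890 averaged 8.24 ± 0.17 in Columbia (SD, n = 3) and 7.79 ± 0.15 in Landsberg erecta (SD, n = 2).

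The differences of AT3G47400 and AT2G27500 changed by more than 1.5 times with 1 array left out. AT3G47400, at 0.56, was 0.32 without Columbia replicate 2 and 0.37 without Landsberg erecta replicate 1, and AT2G27500, at 0.54, was 0.29 without Columbia replicate 3.

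JAL23 and AT1G05770 are lectins of the jacalin type, which bind sugars. JAL23 averaged 8.20 ± 0.19 in Columbia (SD, n = 3) and 7.68 ± 0.14 in Landsberg erecta (SD, n = 2), while AT1G05770 averaged 4.65 ± 0.22 in Columbia (SD, n = 3) and 4.19 ± 0.40 in Landsberg erecta (SD, n = 2). Without Landsberg erecta replicate 2 the difference of AT1G05770 was 0.18, and without replicate 1 it was 0.74. The other 3 measured genes named JAL were listed after the values were seen. JAL34 averaged 4.26 ± 0.12 in Columbia (SD, n = 3) and 4.08 ± 0.11 in Landsberg erecta (SD, n = 2), and JAL22 and JAL33 sat at the minimum on all arrays.

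AT2G29500, a cytosolic small heat shock protein, had 7.57, 6.85 and 6.60 in Columbia, against 6.04 and 6.33 in Landsberg erecta, a difference of 0.82 that was 0.54 without Columbia replicate 1. The heat shock list held 1 other measured gene out of 12 loci, ATHSP22.0, at the minimum on all arrays. CYP84A4, a cytochrome P450 of phenolic metabolism, averaged 6.25 ± 0.42 in Columbia (SD, n = 3) and 5.80 ± 0.01 in Landsberg erecta (SD, n = 2), with a difference of 0.45 that was 0.21 without Columbia replicate 3. UGT84A3, a glucosyltransferase of hydroxycinnamic acids chosen after its values were seen, had 7.55, 7.70 and 8.03 in Columbia, against 7.54 and 7.17 in Landsberg erecta. The lowest Columbia array of UGT84A3 was thus 0.01 above the highest Landsberg erecta array. UGT84A3 was 1 of 5 measured UGT84 genes, a family also listed after the values were seen. UGT84A1 and UGT84A4 differed by -0.005 and -0.086, and UGT84B1 and UGT84B2 sat at the minimum on all arrays.

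Of the remaining members with the 15 largest differences, AT3G19680, a protein with a domain of unknown function, had 7.97, 7.70 and 8.10 in Columbia, against 7.10 and 7.43 in Landsberg erecta. AT3G02910, of a family related to gamma-glutamyl cyclotransferases, had 4.53, 4.53 and 4.88 in Columbia, against 4.06 and 4.06 in Landsberg erecta. The gap of 0.27 in AT3G19680 was below the range within each ecotype, and the gap of 0.47 in AT3G02910 was above both.

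**Figure D4:**
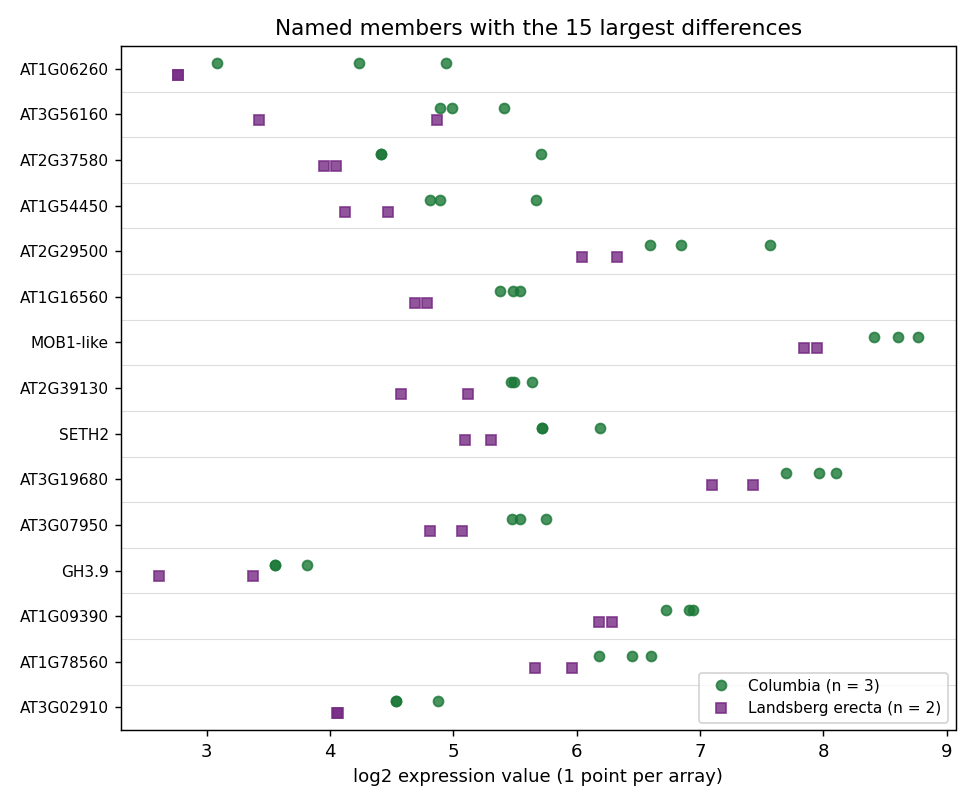
Log2 values (x axis) of the named members with the 15 largest differences, with 1 circle for each Columbia array and 1 square for each Landsberg erecta array. The groups almost touch in AT3G56160 and lie farthest apart relative to their own spread in AT1G16560.

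The other named members were AT1G28090, AT1G78110, AT2G01220, AT3G25680, AT4G17370, AT4G21310, AT4G34560 and AT5G38840, with differences from 0.43 (AT1G28090) to 0.59 (AT4G21310). AT5G38840 encodes a protein with an FHA domain, which binds phosphorylated partners, and AT4G21310 one with a domain of unknown function. AT5G38840 averaged 7.63 ± 0.13 in Columbia (SD, n = 3) and 7.15 ± 0.09 in Landsberg erecta (SD, n = 2). AT2G01220 had 6.91, 6.68 and 6.68 in Columbia, against 6.61 and 5.86 in Landsberg erecta, and a second probe set of it had 8.09, 8.09 and 8.08 in Columbia, against 8.15 and 8.09 in Landsberg erecta, a difference of -0.03. Neither of the 2 genes with a second probe set was therefore separated by it.

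Leaving out 1 array moved the difference of 17 of the 40 named members by over 1.5 times, most often Landsberg erecta replicate 1 (8 genes) or replicate 2 (8 genes). With 1 Landsberg erecta array left out, that ecotype rests on a single array, so such moves can be larger by design. Besides those given above, AT4G21310 was at 0.30, AT4G17370 at 0.32, AT1G50440 at 0.24 and AT2G01220 at 0.15 without Landsberg erecta replicate 2. Without replicate 1, AT2G01220 was at 0.90 and AT4G34560 at 0.19, and AT4G34560 was at 0.84 without replicate 2.

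The remaining 13 members with 1 gene name had differences from 0.40 to 0.43. Of the 53 named member genes, the closest pair on a chromosome lay 19 protein-coding genes apart in the order of RefSeq, and the members without 1 gene name were not placed. Of the members without a gene name, the probe set 262674_at had the largest difference of all 102, with 4.63, 6.17 and 5.01 in Columbia, against 3.95 and 3.79 in Landsberg erecta. The probe set 250610_at had 7.28, 8.39 and 7.60 in Columbia, against 6.78 and 6.75 in Landsberg erecta. Columbia replicate 2 was the highest array in both.

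At the limit of 0.4, the members just inside were the unnamed probe set 246987_at, AT1G73380 and AT5G41950, at 0.4007, 0.4012 and 0.4013. Just outside among those without overlap were the unnamed 255739_at, AT5G53070 and the unnamed 253956_at, at 0.3982, 0.3980 and 0.3962. In all, 881 probe sets showed no overlap with Columbia higher, and of 225 with a difference of at least 0.4, 123 overlapped.

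Some controls and markers moved along with the ecotypes. A listed gene counts as measured here where a probe set carried its name alone, so other listed genes may be on the array without a name. Of the examined probe sets, 59.4% had 1 gene name. The 25S ribosomal RNA control averaged 8.01 ± 0.22 in Columbia (SD, n = 3) and 6.85 ± 0.44 in Landsberg erecta (SD, n = 2), and the log2 ratio of the 3 prime to the 5 prime probe set of GAPDH, a sign of RNA integrity and labelling, averaged 0.93 ± 0.04 in Columbia (SD, n = 3) and 1.24 ± 0.02 in Landsberg erecta (SD, n = 2). Neither of these 2 controls overlapped between the ecotypes (exact permutation test, two-sided p = 0.1 for each, the smallest that 5 arrays allow). The same ratio for ubiquitin averaged 0.85 ± 0.11 in Columbia (SD, n = 3) and 0.87 ± 0.03 in Landsberg erecta (SD, n = 2), with overlap (exact permutation test, two-sided p = 0.9). Organellar probe sets, which the rule left out, met the same condition in 7 of 152 cases (4.61%) with Columbia higher and in 4 with Landsberg erecta higher. Among the examined probe sets these shares were 0.451% and 0.5%. Both measured green tissue markers out of 10, RCA and LHCB4.1, were higher in Columbia without overlap, by 0.17 and 0.20. With no minimum difference, 881 of the 22593 examined probe sets were also higher in Columbia without overlap. The summed level of RCA and LHCB4.1, on the linear scale, was 38395 to 39616 in Columbia and 33867 to 35013 in Landsberg erecta. The part of RNA quality or of the share of green tissue in the members' differences was not tested, and in bulk tissue fewer cells of a type and less RNA per cell cannot be told apart.

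Markers of other tissues overlapped between the ecotypes. GUT2, the measured xylem and stem marker out of 6, was at 55.3 to 308 on the linear scale in Columbia and at 205 to 258 in Landsberg erecta. AMS and EMS1, the measured anther markers out of 4, summed to 41.0 to 139 in Columbia and to 93.1 to 178 in Landsberg erecta. All 3 measured shoot and floral meristem markers out of 12, LAS, UFO and CLV3, sat at the table's minimum on every array, so the labelled tissue could not be checked by them. Of 12 loci for cold and dehydration 3 were measured, and LTI30, COR47 and COR15A differed by 0.16, 0.03 and 0.06 with overlap. GI, the single measured clock gene out of 10, differed by -0.40 with overlap.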

How the data were processed

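The deposited table held log2 expression per probe set, as its range shows. The authors' background correction, normalization and summary of probes were not given in the sources used here. Gene names came from the platform annotation, matched by gene identifier to RefSeq genes of TAIR10.1. RefSeq chromosomes served to leave out organellar genes, and RefSeq start positions to order genes along each chromosome. No sequences were used.

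Organellar probe sets (152) were 112 of organellar genes by annotation and 40 others in the run of probe set IDs that holds them. Differences are Columbia minus Landsberg erecta. limma 3.58.1 in R 4.3.3 (lmFit, eBayes, no filter, threshold 0.05) was fitted to 22746 probe sets and tested on simulated data. The simulated shifts were larger than the difference of any member, so that run does not show what the fit can detect at the members' size. The fit is a fact of the whole table, not a test of members, which were chosen on the same contrast. Members and lists were chosen with earlier results of these data known. The 40 named genes had the largest differences among members with 1 gene name; the first 15 and genes with a second probe set have values for each array. Gene roles are background knowledge: the planned classes by gene description were not used, because the tables pair genes with symbols and no descriptions, and the promoter motifs were not searched. Figures were drawn with matplotlib 3.10.9. The number of arrays limits the precision.

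Alternatives were quantile normalization, equal array medians, other minimum differences, filters on low means, left-out arrays, a replicate block, probe sets specific to a gene and 1 value per gene.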

Additional observations from a re-analysis of the deposited data

How the results depend on the processing

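The count of 102 was 125 after quantile normalization (92 of the members among them) and 150 with equal array medians (100 of the members among them), where 112 met the rule with Landsberg erecta higher. It was 243, 53 and 2 with a minimum difference of 0.3, 0.5 and 1, and 881 with none, by construction. It was 77 without the probe sets below the 50th percentile of the mean, 101 without probe sets that can bind several genes, 52 with 1 value per named gene, which leaves out unnamed probe sets, and 104 with the unnamed probe sets of the organellar run kept, an alternative added after the data were seen. Leaving out 1 array gave 187 to 698, since fewer arrays had to be separated: 214, 265 and 187 without Columbia replicates 1, 2 and 3, and 698 and 435 without Landsberg erecta replicates 1 and 2. The members' median difference of 0.50 stayed between 0.45 and 0.54 in all alternatives run. The members were chosen for a difference of at least 0.4 on these same arrays, so this range is no measure of stability.

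limma called 0 probe sets in either direction under every alternative but 2 kinds. At an unadjusted p under 0.05 it gave 406, and with single arrays left out 0 to 1014: 1014 and 935 without Landsberg erecta replicates 1 and 2, with the spread of the remaining array taken from the Columbia arrays. With the replicate block it called 0. Columbia replicate 3 has no Landsberg erecta array of its number, so that fit compared the ecotypes within replicates 1 and 2 alone. It left little from which to estimate the spread, so its 0 calls add nothing to the main fit. The labels do not say that the numbers pair arrays, and deviations of same-numbered arrays correlated at -0.03 and 0.08. None of the 280 alternative values of named members changed sign, which the absence of overlap fixes for left-out arrays. Under the 2 rescalings a change of sign was hardly possible, because the members were chosen for a difference of at least 0.4 and rescaling moved the differences little. The smallest named difference, 0.43 in AT1G28090, was 0.45 under both. The count of 280 is therefore no measure of stability.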
